A study of Mus musculus with 2 samples.

Results

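Expressed intergenic long noncoding RNAs are described here in adult mouse gastrocnemius, the superficial calf muscle. They were selected on TPM (a length-corrected share of all transcripts), as the genes of the GENCODE M21 type lincRNA with at least 1 TPM in the gene table of each library, leaving out the imprinted-locus genes H19, Meg3, Rian and Mirg. The rule found 115 genes of the 5854 lincRNA genes, within a table of 55536 genes of every type. Since TPM chose them, their levels are given as a description. Total RNA came from male B6CASTF1/J mice of 2 months, hybrids of the B6 and CAST strains, and the labels name no treatment. There was 1 group of 2 libraries, made with 300 ng of RNA each and with ERCC spike-ins. Each library had its own tissue sample, both carry the same donor entry, and nothing in the labels states that separate animals were used, so the spread between them may be partly technical. All 8 markers of muscle fibres that were listed passed the count minimum, and their summed level was 49450 TPM (replicate 1) and 43445 TPM (replicate 2).

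Long noncoding RNAs of this class are transcribed from their own loci between protein-coding genes, and are mostly capped and spliced like messenger RNAs but carry no long conserved reading frame. Some are structural: Neat1 is the scaffold of nuclear paraspeckles, and Malat1 collects in nuclear speckles. Others act in the cytoplasm by holding proteins or microRNAs, serve as precursors of small RNAs, or have no known function. In skeletal muscle a few, such as linc-Myh and Charme in mouse, lie near muscle genes and have been tied to fibre type or to myogenesis.

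Sequence features of members with a known role are shown before their levels, so that the RNA behind each value can be seen. 1700020I14Rik is the mouse Cyrano RNA (RefSeq symbol Oip5os1), known for a long site that pairs with the microRNA miR-7 and leads to its decay. The site lay at bases 2934 to 2959 of the 8300 nt transcript that held most of the gene's reads, at chr2:119602136-119602161 on the plus strand of GRCm38. In both lines the capitals mark the seed of miR-7 (bases 2 to 8) and the bases of the transcript that pair with it.
mmu-miR-7a-5p: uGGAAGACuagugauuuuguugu
1700020I14Rik site: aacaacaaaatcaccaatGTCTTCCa
Beyond base 9 of miR-7, 13 of its 14 bases were matched in the site after a shift of 2 nt. The transcript held 2 seed matches, and at the other one 4 of those 14 bases were matched. A seed match alone was common, since the leading transcripts of 25 of the 115 members held one.

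2900097C17Rik is the mouse Norad RNA, which binds Pumilio proteins through repeats of the motif TGTANATA. Its 4915 nt transcript held 11 copies of that motif on its own strand, and the stretch with the closest pair is printed, from chr2:156390512-156390548 on the minus strand of GRCm38, with the motifs in capitals.
2900097C17Rik stretch: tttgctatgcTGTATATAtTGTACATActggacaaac
Of 16984 protein-coding transcripts of at least 3000 nt, 0.0294% held as many copies, and their median was 0. Gm7292 on chromosome 6, also a member, held 9 copies in 2527 nt and the printed stretch once. It matched 2900097C17Rik at 99.2% over 2537 aligned positions. Neat1 followed with 4 copies in 20771 nt, and 89 of the 115 leading transcripts held none.

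Malat1 ends in a triple helix made by U-rich stretches and an A-rich tail, behind which a tRNA-like RNA is cut off. In the annotated Malat1-201 transcript of 6983 nt, that region lay at bases 6596 to 6761, 222 nt before the annotated end, at chr19:5795912-5796077 on the minus strand of GRCm38. The capitals were set by letter pattern alone. They mark 2 U-rich stretches in which a single C or G interrupts the T bases, and the A-rich tract, written as DNA. The second of these U-rich stretches runs into TGTTTTctcagg, the reverse complement of cctgagaaaaca before it, so the bases there could pair with each other. A further U-rich stretch, ttttgcttttt, interrupted by GC, stands in lower case before the A-rich tract. Which of these stretches form the helix was not tested.
Malat1 3′ region: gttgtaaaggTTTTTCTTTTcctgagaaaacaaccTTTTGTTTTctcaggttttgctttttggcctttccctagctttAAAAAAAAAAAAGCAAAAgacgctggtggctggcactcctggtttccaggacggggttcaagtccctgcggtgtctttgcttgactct

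Several members are hosts of small RNAs, and 5 of them held 7 microRNA genes on their own strand. The mature sequences (RefSeq, GRCm38.p6) are shown by host, with the seed (bases 2 to 8) in capitals. The 3 let-7 microRNAs inside 6720427I07Rik on chromosome 13 share 1 seed, and the others have seeds of their own.
mmu-let-7a-5p: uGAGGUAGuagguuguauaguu
mmu-let-7f-5p: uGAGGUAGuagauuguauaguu
mmu-let-7d-5p: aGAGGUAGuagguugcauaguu
mmu-miR-101a-3p: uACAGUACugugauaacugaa
mmu-miR-30c-5p: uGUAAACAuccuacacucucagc
mmu-miR-1839-5p: aAGGUAGAuagaacaggucuug
mmu-miR-6516-5p: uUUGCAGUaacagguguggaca
The host of miR-101a was E130102H24Rik on chromosome 4, that of miR-30c was Gm27028 on chromosome 1, that of miR-1839 was 2900076A07Rik on chromosome 7, and that of miR-6516 was Snhg20 on chromosome 11.

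Few genes of this class were expressed, and a few of those held most of the summed level. At the threshold were 2.00% of lincRNA genes (117 of 5854, of which H19 and Meg3 are left out), against 44.6% of protein-coding genes (9824 of 22028). A read in either library was found for 1248 lincRNA genes, and 4606 had none. The median of the members' mean TPM was 2.67, and that of protein-coding genes at the same threshold was 7.55. Of the members, 7 averaged at least 100 TPM, 18 at least 10 TPM, 83 less than 5 TPM and 42 less than 2 TPM. Together they held 8245 TPM (replicate 1) and 7930 TPM (replicate 2), and the 10 most abundant held 94.2% and 94.4% of that.

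The nearest values at the threshold were close together. Just inside were C030037D09Rik at 1.01 TPM (replicate 1) and 1.70 TPM (replicate 2), Pvt1 at 1.48 and 1.03 TPM, and D130017N08Rik at 1.18 and 1.05 TPM. Just outside were 1700011D18Rik at 0.98 and 1.14 TPM, 4632415L05Rik at 0.98 and 1.31 TPM, and AU020206 at 1.00 and 0.97 TPM. The threshold was reached in replicate 1 alone by 12 lincRNA genes and in replicate 2 alone by 20.

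**Figure D1:**
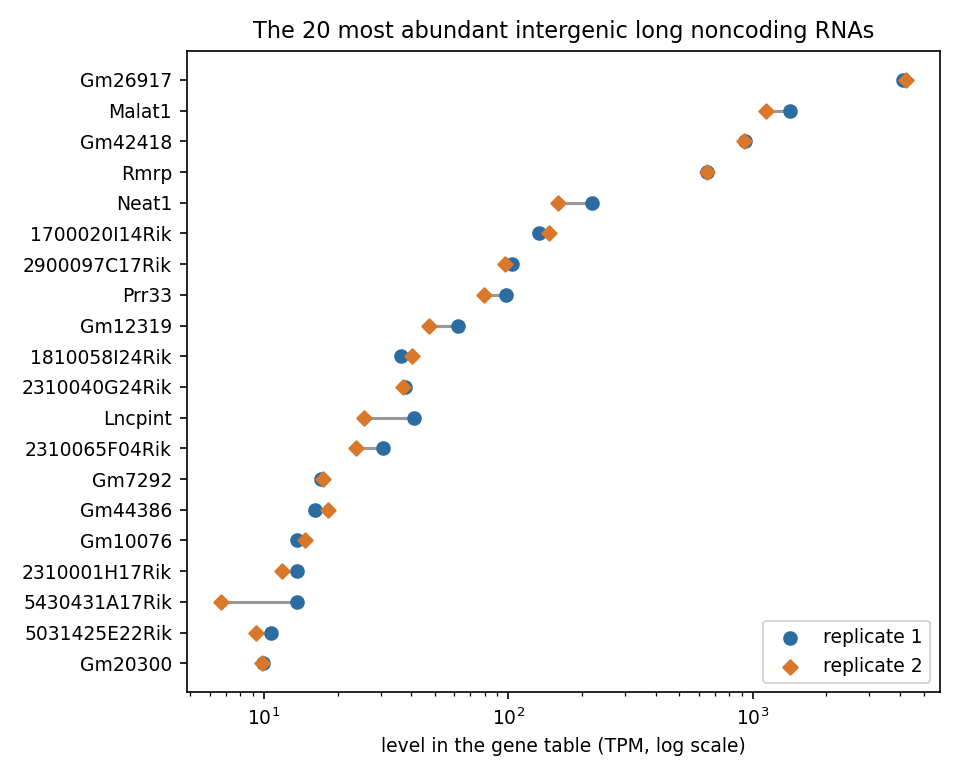
Levels of the 20 most abundant intergenic long noncoding RNAs in TPM on a log axis, with a circle for replicate 1, a diamond for replicate 2 and a line joining them. The levels run from 4103 and 4215 TPM for Gm26917 to 9.93 and 9.82 TPM for Gm20300, and the widest gap is that of 5430431A17Rik, at 13.7 and 6.67 TPM.

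Most of the summed level came from adjacent genes on chromosome 17, at a ribosomal RNA pseudogene. Gm26917 (chr17:39843013-39846341, plus strand) was at 4103 TPM (replicate 1) and 4215 TPM (replicate 2). Gm42418 (chr17:39846958-39848788, plus strand) was at 933 and 923 TPM. RefSeq lists Gm42418 among the synonyms of Rn18s-rs5, a pseudogene of 18S ribosomal RNA at chr17:39846354-39848202, and Gm26917, which was not matched in RefSeq, ends next to it. The pair held 61.1% of the members' TPM in replicate 1 and 64.8% in replicate 2. Without them the members held 3210 TPM and 2792 TPM, of which Malat1 made up 44.4% and 40.4%. The spike-in profile named in the labels is one for stranded libraries with ribosomal RNA reduced.

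The RNAs of nuclear bodies were next. Malat1 was at 1425 TPM (replicate 1) and 1129 TPM (replicate 2). Neat1 (chr19:5824708-5845478, minus strand), a neighbour of Malat1 on the same strand, was at 220 and 160 TPM. Both were lower in replicate 2, by -0.32 and -0.24 on the log2 scale, which was short of the 1.5-fold needed for a call. The RNA of genes listed for paraspeckle proteins, some of which coat Neat1, reached 1 TPM in both libraries for 12 of 12, and none was called different. Likewise none of the 12 nuclear speckle genes and none of the 12 tested of 13 genes for processing the Malat1 3′ end was called. Among all genes at 1 TPM in both libraries, 3.46% were called higher in replicate 2 and 1.62% higher in replicate 1. At those shares, lists this short would hold few calls or none, so the lack of calls says little about these genes.

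The annotated transcripts of these RNAs differed in what they were given. For Neat1 the short Neat1-202 (3004 nt), which ends at an early polyadenylation site, held 75.3% of the gene's TPM in replicate 1 and 67.1% in replicate 2 in the first kind of transcript table. The long Neat1-201 (20771 nt), the form needed for paraspeckles, held 23.6% and 29.2%. In expected counts the order was the opposite, with 36885 and 33080 for the long form against 16534 and 10704 for the short form. The second kind of table put 67.7% and 61.8% of the Neat1 TPM on the short form. For Malat1 the tables parted in TPM. Malat1-201 held 43.3% and 42.1% of the gene's TPM in the first tables and 99.8% and 99.9% in the second tables. The first tables put the rest of the TPM on spliced transcripts of 485 to 656 nt. In expected counts of the first tables, Malat1-201 held most of the gene, with 145989 of 159318 (replicate 1) and 112585 of 123219 (replicate 2).

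**Figure D2:**
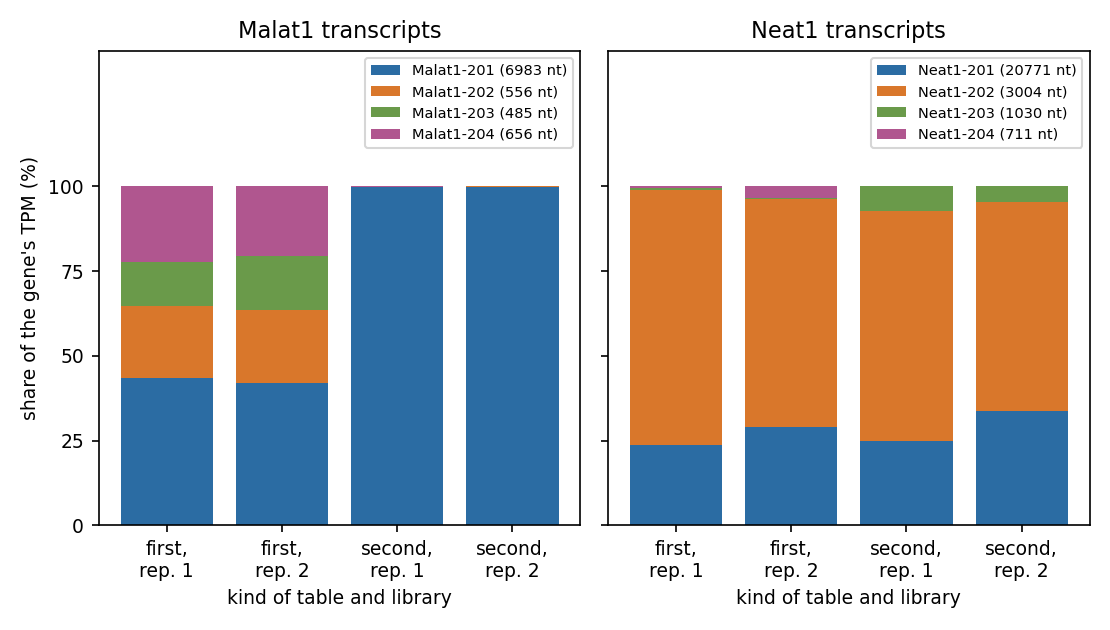
Shares of the gene's TPM, in percent, held by each annotated transcript of Malat1 (left) and Neat1 (right), with 1 bar for each kind of table and library. The full-length Malat1-201 holds 43.3% and 42.1% in the first tables and 99.8% and 99.9% in the second tables, while Neat1-202 leads in all 4 bars.

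Rmrp, the RNA of the RNase MRP enzyme that cuts ribosomal RNA precursors, was at 650 TPM (replicate 1) and 652 TPM (replicate 2). A second gene of that name at the same place, annotated as a ribozyme and identical over 271 nt of the member's 281 nt, was at 1575 and 1357 TPM. Reads of the pair cannot be told apart, and the posterior standard deviation of the member's count was 290 reads in replicate 1 and 277 in replicate 2, on counts of 4062 and 4081. Both genes were listed at 0 in the second tables.

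RNAs that act through proteins or microRNAs in the cytoplasm differed by far less than 1.5-fold between the libraries. 1700020I14Rik (Cyrano) was at 134 TPM (replicate 1) and 146 TPM (replicate 2). 2900097C17Rik (Norad) was at 103 and 97.0 TPM. Gm7292, its near-identical copy, was at 17.0 and 17.5 TPM, and the same posterior standard deviation of 35.1 reads stood beside both genes in replicate 1. The log2 ratio of replicate 2 over replicate 1 was 0.19 for Cyrano, with an interval from 0.17 to 0.21, and -0.04 for Norad, with an interval from -0.07 to -0.01. These intervals cover counting error only. The 8300 nt Cyrano transcript with the miR-7 site held 74.0% and 74.9% of that gene's TPM.

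Members beside muscle genes made up the next tier. Prr33 (chr7:142491074-142506771, minus strand) lies across the fast troponin T gene Tnnt3 on the other strand with no overlap of exons. Prr33 was at 97.7 TPM (replicate 1) and 79.6 TPM (replicate 2), and Tnnt3 at 14906 and 11890 TPM. No source used here states whether strand was used in counting, so reads of the Tnnt3 strand may be among those of Prr33. Gm12319 (chr11:70654741-70656493, minus strand) ends 97 nt upstream of Pfn1, which encodes the actin-binding protein profilin, and lies 709 nt from the muscle enolase gene Eno3. Gm12319 was at 62.1 and 47.4 TPM, Pfn1 at 98.7 and 91.8 TPM, and Eno3 at 2936 and 2491 TPM. 2310065F04Rik is linc-Myh in RefSeq (chr11:67112461-67120080, minus strand), 10170 nt from the embryonic myosin gene Myh3. linc-Myh was at 30.6 TPM (replicate 1) and 23.9 TPM (replicate 2), while Myh3 was at 3.06 and 4.19 TPM. Its log2 ratio was -0.30, beside -0.37 for Myh4, the myosin of the fastest fibres, and neither reached 1.5-fold. The other fast myosins went the opposite way, with log2 ratios of 0.94 for Myh1 and 1.02 for Myh2, both called.

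5430431A17Rik (chr7:44473538-44486138, plus strand) is the locus known in mouse as Charme, a chromatin-associated RNA of muscle cells. It was at 13.7 TPM (replicate 1) and 6.67 TPM (replicate 2). Of the 8 protein-coding genes within 50000 nt of it, the most abundant was Mybpc2, the fast myosin-binding protein C, at 1949 and 1316 TPM. The 2-exon transcript 5430431A17Rik-201 held 97.6% and 94.8% of its TPM. Other abundant members carry no role stated here. 2310040G24Rik was at 37.6 and 37.1 TPM, and Gm44386, on the same strand of chromosome 6 and near Pcbp1, was at 16.1 and 18.2 TPM. 2310001H17Rik was at 13.7 and 11.8 TPM, and the single-exon Gm20300, 1507 nt downstream of the nucleotide hydrolase gene Hint3, at 9.93 and 9.82 TPM.

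Some members encode proteins in another catalogue. RefSeq placed 73 of the members, and 7 of those are protein-coding there: 1810058I24Rik, Tmem250-ps, Gm37494, Lsmem2, Gm39469, Gm46430 and Gm5165. The most abundant, 1810058I24Rik, has the RefSeq synonym Stmp1, a short transmembrane protein of mitochondria, and was at 36.4 TPM (replicate 1) and 40.4 TPM (replicate 2). Lsmem2 was at 8.63 and 5.39 TPM. RefSeq lists 64 of the members as long noncoding RNA, 1 as the RNase MRP RNA and 1 as a pseudogene. By identifier or symbol, 42 members were not matched. Synonyms were not searched, so these 42 include Gm42418, a RefSeq synonym of the pseudogene Rn18s-rs5.

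Hosts of small RNAs were expressed at a few TPM. 6720427I07Rik, with its 3 let-7 genes, was at 1.38 TPM (replicate 1) and 1.07 TPM (replicate 2). E130102H24Rik with miR-101a was at 2.26 and 2.49 TPM, and Gm27028 with miR-30c at 1.75 and 1.94 TPM. 2900076A07Rik with miR-1839, 1810 nt from the muscle gene Fsd2, was at 3.21 and 2.74 TPM. The microRNA genes themselves, all annotated inside exons of their hosts, were listed at 0 in both gene tables, and why was not tested. Mature microRNAs are shorter than the fragments such libraries keep, so their levels cannot be read from these values. Among hosts of small nucleolar RNAs, which guide the modification of ribosomal RNA, Snhg6 was at 8.65 and 7.09 TPM and Snhg12 at 4.10 and 3.36 TPM. Snora44 within Snhg12 was at 102 and 67.4 TPM, from 105 and 69.6 expected counts. Gm26083, a small Cajal body RNA gene inside an exon of Snhg20, was at 64.1 and 36.8 TPM, while Snhg20 itself was at 3.38 and 3.81 TPM. Epb41l4aos, another host, was at 5.62 and 4.74 TPM.

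Further known long noncoding RNAs ranged from Lncpint, among the most abundant members, to RNAs under the threshold. Of 48 listed names, matched by symbol, 44 were in the annotation, 25 reached 1 TPM in both libraries and 11 were members. Oip5os1 was counted only under its other name, 1700020I14Rik. Mir143hg is a RefSeq synonym of Carmn, a member that the match by symbol missed. Carmn was at 5.32 TPM (replicate 1) and 3.97 TPM (replicate 2), with a log2 ratio of -0.54, and was not called. Lncpint, an RNA induced by p53 in mouse, was at 41.2 TPM (replicate 1) and 25.8 TPM (replicate 2). Jpx, an activator of Xist, was at 3.30 and 2.14 TPM. Pvt1, downstream of the Myc gene on its strand, was at 1.48 and 1.03 TPM. Hotair was at 0.32 and 0.24 TPM and Mir17hg at 0.15 and 0.17 TPM, both under the threshold.

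Between the libraries, most members differed by less than 1.5-fold. A gene was called where the exact two-sided binomial test of its counts gave a Benjamini-Hochberg adjusted p under 0.05 over all genes and the fold was at least 1.5. The test compares these libraries, covers counting error only and has no replicate check. Of 114 members tested, 5 were called higher in replicate 2 (4.39%), where 4.07% of all genes tested, 3.46% of genes at the same TPM threshold and 3.38% of protein-coding genes there were called. As many members, 5 (4.39%), were called higher in replicate 1, beside 2.72% of all genes, 1.62% of genes at that threshold and 1.25% of protein-coding genes there. The median log2 ratio was -0.03 over members and -0.0010 over all genes. Within 1.5-fold were 86.8% of members, 87.4% of all genes tested, 94.4% of genes at the same threshold and 95.2% of protein-coding genes there. Members had few reads, with a median summed count of 217, and at 200 or more summed counts the standard deviation of the log2 ratio was 0.360 for 60 members, 0.338 for all 10054 genes and 0.285 for the 9709 of those at the threshold.

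Of the members higher in replicate 1, 5430431A17Rik (Charme) had expected counts of 334 in replicate 1 and 166 in replicate 2, a log2 ratio of -0.96 with an interval from -1.24 to -0.69 and an exact binomial adjusted p of 1.07e-11. Lncpint had 1202 and 707 counts, a log2 ratio of -0.72 (interval -0.86 to -0.58) and an adjusted p of 3.73e-25 by the same exact test. The other 3 had fewer reads. 2310015K22Rik, on chromosome 1, had 111 and 52 counts and a log2 ratio of -1.04, Gm43699 had 68 and 37 counts, and AC122818.4, near the calmodulin gene Calm2, had 72 and 41.

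Of the members higher in replicate 2, AC138790.3 had 178 and 293 counts, a log2 ratio of 0.76 (interval 0.49 to 1.04) and an exact adjusted p of 2.11e-07. Its start lies 3707 nt from that of Got1, the cytosolic aspartate aminotransferase gene on the other strand, which was at 124 TPM (replicate 1) and 223 TPM (replicate 2). E230001N04Rik had 99 and 195 counts, a log2 ratio of 1.02 (interval 0.67 to 1.39) and an exact adjusted p of 5.51e-08. It begins 5193 nt from the start of Fkbp5, a target gene of glucocorticoids, which was at 60.1 and 55.9 TPM. The largest log2 ratio, 1.28, was that of 2310075C17Rik, from 21 and 50 counts. In the second tables this gene had 1 and 3 estimated counts, under the minimum for a test. This gene lies within the span of Arpp21 on the other strand, which was at 3.72 and 6.74 TPM. AC102496.1 had 42 and 74 counts, and Gm5165 had 78.5 and 116, with a log2 ratio of 0.62.

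**Figure D3:**
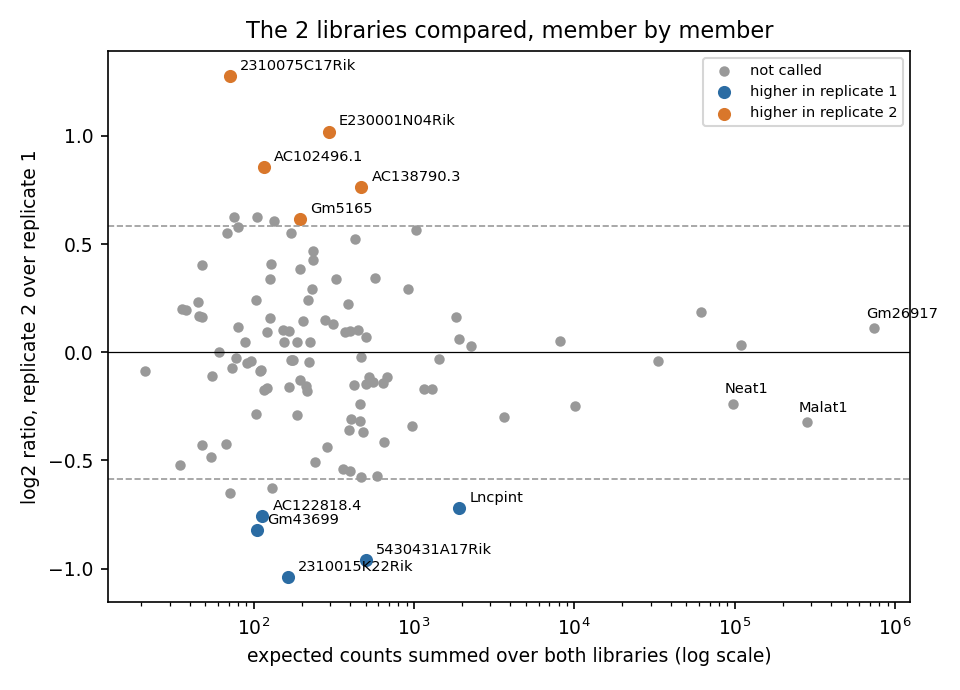
Log2 ratio of replicate 2 over replicate 1 against the summed expected count (log axis) for the 114 members tested, with dashed lines at 1.5-fold. The 5 members called higher in replicate 2 and the 5 called higher in replicate 1 are coloured and named, and the abundant Malat1 and Neat1 lie at -0.32 and -0.24.

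The libraries also differed in their fibre and connective tissue genes. All 13 tested of 14 slow-fibre genes were called higher in replicate 2, with a summed level of 1832 TPM (replicate 1) and 4313 TPM (replicate 2). The 15 fast-fibre genes summed to 90622 and 71605 TPM, and of these Myh1 and Myh2 were called higher in replicate 2 and none lower. Of 10 tendon markers 8 were called higher in replicate 2, and their sum went from 60.7 to 100 TPM. Of 10 fibro-adipogenic markers 5 were called higher in replicate 1 and Col1a1 higher in replicate 2, with sums of 584 and 441 TPM. The part of these differences in the members' ratios was not tested. In bulk tissue, fewer cells of a type and less RNA per cell cannot be told apart.

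The second tables, made from the same libraries and therefore not independent, gave the members higher levels. The median log2 ratio of second over first TPM was 0.62 in replicate 1 and 0.57 in replicate 2, beside 0.59 and 0.51 for protein-coding genes at the threshold. At 1 TPM in both second tables were 109 of the 115 members and 218 lincRNA genes in all. Across members, Spearman's rho between the kinds of table was 0.700 in replicate 1 and 0.721 in replicate 2, and between the libraries in the first tables it was 0.880. These rho values share libraries and annotation, and genes are not independent replicates.

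A few members moved far. Gm20186 went from 1.29 and 1.87 TPM (replicates 1 and 2) in the first tables to 390 and 478 TPM in the second tables. It matched another lincRNA gene, Gm12840, at 97.0% over 463 nt, and Gm12840 went from 0.31 and 0.06 TPM to 30.5 and 52.2 TPM. Snhg20 went from 3.38 and 3.81 TPM to 63.2 and 40.2 TPM. The Cajal body RNA gene inside it was at 64.1 and 36.8 TPM in the first tables. In the other direction, the widest falls among members above 0 were on few reads: Gm44899 went from 1.67 and 1.89 TPM to 0.345 and 0.337 TPM, and 2310075C17Rik from 2.69 and 6.41 TPM to 0.462 and 1.38 TPM. With at least 200 summed reads, Gm12319 went from 62.1 and 47.4 TPM to 33.4 and 28.2 TPM, on a transcript of 357 nt. Malat1 went from 1425 and 1129 TPM to 947 and 696 TPM. Its counts went the other way, from 159318 and 123219 in the first tables to 177535 and 135351 in the second tables. Smaller falls were seen in Gm49749, from 5.18 and 5.53 TPM to 3.68 and 3.97 TPM, and in Gm26722, from 7.39 and 7.05 TPM to 5.92 and 6.25 TPM. Among members with at least 200 summed reads, the widest shifts upward were in Gm46430 (2.04 and 1.93 TPM, then 6.00 and 5.44 TPM), Gm26853 (1.67 and 1.26, then 4.48 and 3.15), 2310040G24Rik (37.6 and 37.1, then 86.2 and 80.9) and 9430037G07Rik (2.27 and 2.38, then 5.42 and 4.67). 9430037G07Rik matched 9330159M07Rik, a noncoding gene also on chromosome 9, at 98.1% over 1448 nt.

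Besides Rmrp, the members listed at 0 in both second tables were Gm10076, Gm49207 and Gm38079. All 4, Rmrp included, were among the 20 members of up to 500 nt, and no longer member was at 0. Gm38079, of 154 nt, was at 4.23 and 1.06 TPM in the first tables, from 8 and 2 expected counts, and had no match at another locus. Why these members were at 0 was not tested. Gm10076 (13.7 and 14.7 TPM in the first tables) matched the ribosomal protein gene Rpl41 at 99.5% over 383 nt, and Rpl41 was at 365 and 359 TPM there. Gm49207 (5.26 and 7.73 TPM) matched Ahsa1, a cochaperone gene, at 99.6% over 268 nt, and Ahsa1 was at 47.2 and 49.2 TPM. Reads of such copies are of uncertain assignment. A posterior standard deviation above 0 stood beside 22 of the 115 members, and 25 members had a match of at least 100 nt and 95% identity at another locus. Only 15 of those 22 had such a match. For 8 members the match covered at least 50% of the leading transcript.

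**Figure D4:**
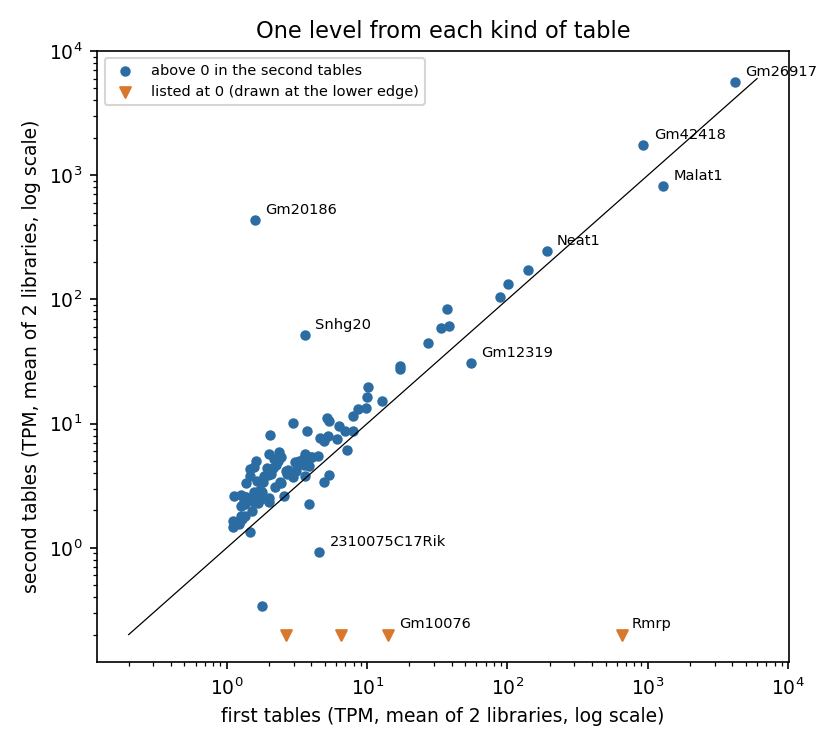
Mean TPM of the 2 libraries in the second tables against that in the first tables for the members, on log axes, with the line of equal levels. Most points lie a little above the line, Gm20186 and Snhg20 lie far above it, Malat1 and Gm12319 lie below, and the 4 members listed at 0 in the second tables are drawn at the lower edge.

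In the annotation, the members had few exons and lay close to protein-coding genes. A single exon was annotated for 20 of them (17.4%), against 5.18% of the 5737 lincRNA genes below the threshold and 1.91% of protein-coding genes at it. Their median was 2 exons and 1603 nt of spliced length, beside 3 exons and 973 nt for lincRNA genes below the threshold. More than 1 transcript was annotated for 61 members, of which 50 had the same leading transcript in both first tables and 33 had it in all 4 tables. The members were spread over 20 chromosomes, with the most, 12, on chromosome 5 and 1 on the X chromosome.

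The median gap to the nearest protein-coding gene was 3858 nt for members and 45616 nt for lincRNA genes below the threshold. Within 5000 nt were 53.0% of members and 21.2% of the others, and 16 members were over 50000 nt away. The start of 19 members lay within 1000 nt of the start of a protein-coding gene on the opposite strand. 5031425E22Rik, at 10.7 TPM (replicate 1) and 9.26 TPM (replicate 2), starts 172 nt from Kmt2e, a chromatin regulator at 11.2 and 10.7 TPM. The nearest protein-coding gene reached 1 TPM in both libraries for 85 of the 115 members. The median level of all 115 neighbours was 5.23 TPM, beside 0.785 TPM for the neighbours of the other lincRNA genes. The levels of member and neighbour did not rank together across the 115 pairs, with a Spearman's rho of -0.01. Exons of 28 members overlapped an exon of another gene on the opposite strand, and those of 17 overlapped one on the same strand, so part of their reads could be of the partner.

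**Figure D5:**
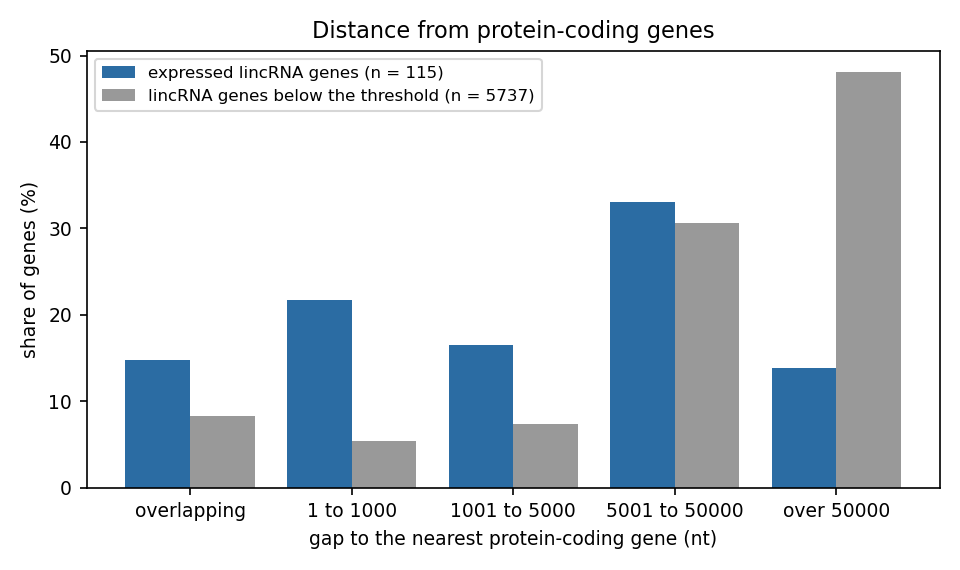
Share of genes, in percent, by the gap to the nearest protein-coding gene in nt, for the 115 members and the 5737 lincRNA genes below the threshold. Members are the more frequent up to 5000 nt, with 21.7% against 5.47% at 1 to 1000 nt, and the less frequent over 50000 nt, with 13.9% against 48.1%.

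Promoter windows around the annotated start (RefSeq GRCm38.p6) were given for 60 members, in 74 windows. TATAAA, on either strand, was in 13.5% of them and in 13.6% of all 32851 windows. The E-box CANNTG, a motif bound by myogenic and many other factors, was in 75.7% of the members' windows and in 72.3% of all windows. The median number of CG dinucleotides was 9.5 in the members' windows and 7 in all. These matches describe letters in a window and no binding.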

How the data were processed

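Gene and transcript tables of 2 libraries were used. Per the file headers, the authors deposited expected counts, TPM, the posterior standard deviation of each count (read as a score) and the percent of a gene's TPM held by each transcript in the first tables, which have the layout of RSEM. In the second tables, which look like kallisto output, they deposited an estimated count and a TPM for each transcript, summed to genes here. Per the submitters' processing notes the build was mm10 with GENCODE M21, and the sources used here name no program or version. Reads were assigned to a reference of 1 parental type, and alleles were not separated.

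Expected counts came to 42925570 in replicate 1 and 42467674 in replicate 2, where 3 reads, the limit a count of 0 allows, are 0.0699 and 0.0706 CPM. They were rounded and scaled by TMM factors (edgeR 4.0.16, R 4.3.3). With 1 group a quasi-likelihood test was not possible, so genes with 20 or more summed counts were compared by an exact conditional binomial test with Benjamini-Hochberg adjustment over all genes. Log2 ratios, computed on counts deposited by the authors, are replicate 2 over replicate 1 with 0.5 added, and intervals are Clopper-Pearson at 95%. The ratio test was checked on simulated counts. Leading transcripts were compared with all M21 transcripts by blastn 2.17.0. RefSeq names were matched by Entrez identifier and then by symbol.

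The members and lists were chosen with earlier results of these data known. Members named are the 20 most abundant, up to 6 each way with the largest fold among calls on 200 or more summed counts, the 4 farthest each way between the kinds of table, those in the list of known long noncoding RNAs, those that hold a small RNA gene, and the 3 on each side of the threshold. Others with a call, a count under 5 in a class or a near-identical copy were named after their values were seen. Alternatives were other thresholds, scalings (DESeq2 1.42.0 size factors, spike-ins, library totals), count and fold minimums, the second tables and leaving out a library.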

Additional observations from a re-analysis of the deposited data

How the results depend on the processing

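No paired analysis was possible because the study has 1 group of 2 libraries. The 115 members became 184 at a TPM threshold of 0.5, 67 at 2 and 218 in the second tables. Their summed TPM, 8088 on average, was 10424 in the second tables and 3001 without Gm26917 and Gm42418. The share held by the 10 most abundant, taken in each library and averaged, was 94.3%. It was 93.6% at a threshold of 0.5, 95.2% at 2, 90.2% in the second tables, 87.0% without that pair and 93.7% with posterior mean TPM. With 1 library alone the members were 127 to 135, their summed TPM 7959 to 8261 and that share 94.0% to 94.1%. Members called higher in replicate 2 went from 5 to 8 with spike-in scaling, 2 with a summed count of at least 200, 2 at a fold of 2, 12 with no fold minimum and 4 with library totals. Members called higher in replicate 1 went from 5 to 8 with scaling by library totals, 2 with a summed count of at least 200, 1 at a fold of 2, 18 with no fold minimum and 7 in the second tables. For these changes of threshold the counts differ by construction, and for the scalings the cause was not tested. Spike-in scaling also turned the members' median log2 ratio from -0.03 to 0.03, with a shift of all genes from -0.0010 to 0.05. Among members with a posterior standard deviation of 0, an alternative chosen after seeing the data, 4 were called higher in replicate 2 and 5 in replicate 1. Of the named members, Gm44386 was called only in the second tables (log2 ratio 0.77) and C030037D09Rik only with spike-in scaling (0.66). Of the 5 called in each direction, the second tables called 3 of those higher in replicate 2, where 2310075C17Rik had too few reads to test, and 5 of those higher in replicate 1. Of the 5 calls each way, 3 each way were in the 54 members tested with a summed count under 200, and 2 each way in the 60 with more.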
